A study of Mus musculus with 3 samples.

Results

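The Hox genes of the 4 clusters are the 37 genes of the deposited table whose transcripts carry a symbol of Hoxa, Hoxb, Hoxc or Hoxd followed by a paralog number, and they take up 42 of its 16383 transcripts. They were chosen by name alone. The RefSeq gene table lists 39 such genes, and the other two, Hoxb2 and Hoxc5, were not analysed here. Whole lungs of mice of a C57BL/6J mixed background were sequenced to ask what Lin28a and Lin28b, which encode RNA-binding proteins, do in the branching lung. There was 1 library labelled WT and 2 labelled as Lin28a and Lin28b KO, called DKO 1 and DKO 2 here after their labels. In the KO, exon 2 of both genes was flanked by loxP sites and removed through a tamoxifen-inducible Cre, NKX2.1creERT, which acts in the epithelium. Mesenchyme and other cells of these lungs are therefore not a target of the Cre. The labels do not say whether the WT animal carried the Cre or received tamoxifen. Levels are given as RPKM, reads per length of transcript and depth of library, a scale meant for comparing genes. Comparison between genes is limited here by possible failed estimates, shared exons and unknown transcript lengths, as described below. Age and sex are not stated, and neither is the number of animals behind DKO 1 and DKO 2, so p-values measure only the spread between these libraries, which may be partly technical.

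Hox genes encode homeodomain transcription factors that give cells a position along the head-to-tail axis. Within a cluster all genes point the same way, and those with low paralog numbers are used from the anterior body onward while those with high numbers are kept for the posterior trunk, the limbs and the urogenital system. The lung buds from the anterior foregut, and its Hox genes are known mainly from the mesenchyme around the epithelium. Hoxa5 and Hoxb5 are the members best known there, where they act in branching and in the patterning of the airways.

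Promoter windows in the RefSeq sequence table (GRCm38.p6, 250 bases before to 50 bases after a transcript start) were found for 22 of the 37 genes. For some genes, Hoxb8 among them, this start lies inside the annotated gene rather than at its first base. Among the genes with no window in the table were Hoxa4, Hoxb3, Hoxb5, Hoxb6, Hoxb7, Hoxb9, Hoxb13, Hoxc6, Hoxc8, Hoxc9, Hoxc10, Hoxc11, Hoxc12 and Hoxc13. The first 2 windows are shown because they belong to neighbours with opposite levels. Hoxa5 had the highest level of all Hox genes in every library, and Hoxa6, which ends 270 bases upstream of the Hoxa5 gene, was close to 0. The other two are shown for a gene of the expressed part of Hoxb (Hoxb4) and one at its posterior edge (Hoxb8). The windows lie at chr6:52204538-52204837 (minus strand) for Hoxa5, chr6:52208623-52208922 (minus strand) for Hoxa6, chr11:96318017-96318316 (plus strand) for Hoxb4 and chr11:96281655-96281954 (plus strand) for Hoxb8. They are written 5′ to 3′ along the gene, and capitals mark each CG dinucleotide, the site of DNA methylation.
Hoxa5: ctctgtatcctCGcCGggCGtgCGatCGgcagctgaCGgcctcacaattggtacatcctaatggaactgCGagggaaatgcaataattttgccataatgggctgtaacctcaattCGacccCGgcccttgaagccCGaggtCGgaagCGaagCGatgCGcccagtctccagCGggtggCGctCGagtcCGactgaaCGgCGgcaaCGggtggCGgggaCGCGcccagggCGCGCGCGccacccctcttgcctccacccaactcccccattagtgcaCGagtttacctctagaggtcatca
Hoxa6: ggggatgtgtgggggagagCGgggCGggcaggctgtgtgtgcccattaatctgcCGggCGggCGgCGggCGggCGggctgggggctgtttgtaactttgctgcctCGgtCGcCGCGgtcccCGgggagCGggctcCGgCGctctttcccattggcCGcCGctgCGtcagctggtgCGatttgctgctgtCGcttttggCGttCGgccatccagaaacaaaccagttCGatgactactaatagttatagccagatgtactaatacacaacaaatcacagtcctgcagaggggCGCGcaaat
Hoxb4: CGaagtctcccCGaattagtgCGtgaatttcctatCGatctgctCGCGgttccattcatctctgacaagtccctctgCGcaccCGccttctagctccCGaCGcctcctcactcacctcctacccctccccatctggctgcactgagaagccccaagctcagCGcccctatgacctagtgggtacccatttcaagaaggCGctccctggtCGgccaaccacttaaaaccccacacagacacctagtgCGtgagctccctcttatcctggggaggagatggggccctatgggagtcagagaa
Hoxb8: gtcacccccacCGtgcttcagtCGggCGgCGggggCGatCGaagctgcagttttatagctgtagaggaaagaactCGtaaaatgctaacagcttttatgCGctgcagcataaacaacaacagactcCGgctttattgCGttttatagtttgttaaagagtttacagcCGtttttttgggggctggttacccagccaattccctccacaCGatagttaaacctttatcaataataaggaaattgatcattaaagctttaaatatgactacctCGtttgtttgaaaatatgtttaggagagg

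The Hoxa5 and Hoxa6 windows hold 29 and 26 CG dinucleotides and 61.7% and 62.0% G or C. The highest gene of the cluster and its low neighbour thus have windows of like CG content. Hoxb4 holds 14 CG dinucleotides and Hoxb8 holds 13. The 24 Hox windows (2 genes have a pair) had a median of 14.5 CG dinucleotides, beside 7 over all 32851 windows of the table. The 4 windows of genes with a mean of at least 1 RPKM ranged from 9 to 29, within the range of 4 to 45 in the other 20. A few short motifs were searched on both strands. TATAAA, the core of the TATA box, was in 4 of the 24 Hox windows and in 13.6% of all windows. TAATTA, a homeodomain motif, was in 2 and in 5.29%. TGATNNAT, a joint motif of Hox proteins and their TALE cofactors, was in 4 and in 8.85%. Of the sequences shown, Hoxa5, Hoxa6 and Hoxb4 hold none of the 3. Hoxb8 holds TATAAA on the opposite strand with first bases at 52 and 141 of the window, and TGATNNAT on the opposite strand at 240.

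A targeted gene, Lin28b, and the make-up of the libraries were checked first. Lin28a was not looked up. Lin28b stood at 0.449 RPKM for WT, 0.187 for DKO 1 and 0.590 for DKO 2. It was lower than WT in the library labelled DKO 1 and higher in that labelled DKO 2, and a sum over a whole transcript and all lung cells checks the loss of 1 exon in epithelium only weakly. The low values imply about 48700000, 30700000 and 34200000 reads in the same order. The 4 Y-linked genes examined were listed at 0 in WT and lay between 0.185 and 15.0 RPKM in the DKO libraries, so sex and genotype cannot be told apart. The lung label was checked against 11 epithelial genes, of which 9 were in the table and 7 above 0, with Epcam at 17.4, 6.75 and 10.6 RPKM and with Nkx2-1 and Sftpb listed at 0. A gene that nearly every cell uses, Gapdh, had at most 0.185 RPKM, so a value listed at 0 can be a failed estimate. Fewer cells of a type and less RNA per cell cannot be told apart in these bulk libraries.

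Of the 37 Hox genes, 26 had a value above 0 in at least 1 library. The levels sat in the anterior and middle parts of Hoxa and Hoxb. The Hoxa cluster (chromosome 6) summed to 64.4 RPKM for WT, 46.8 for DKO 1 and 48.5 for DKO 2. WT was above both DKO libraries, which lay close to each other in RPKM. The Hoxb cluster (chromosome 11) summed to 33.9, 30.1 and 49.8 RPKM, with WT between the DKO libraries. The Hoxc cluster (chromosome 15) summed to 1.18, 0.981 and 0.594 RPKM. The Hoxd cluster (chromosome 2) summed to 0.375, 0.225 and 0.0771 RPKM. Together, Hoxc and Hoxd thus carried a small part of the Hox signal, and both were lower in each DKO library than in WT. The whole Hox set summed to 99.9, 78.2 and 98.9 RPKM, so DKO 2 was nearly as high as WT and DKO 1 lower, whereas with rescaling to TPM (each library's values brought to the same total) both DKO libraries were lower, at 0.744 and 0.763 of WT. With 1 library against 2 an exact permutation test cannot go below p = 0.333, and these sums were given no test.

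**Figure D1:**
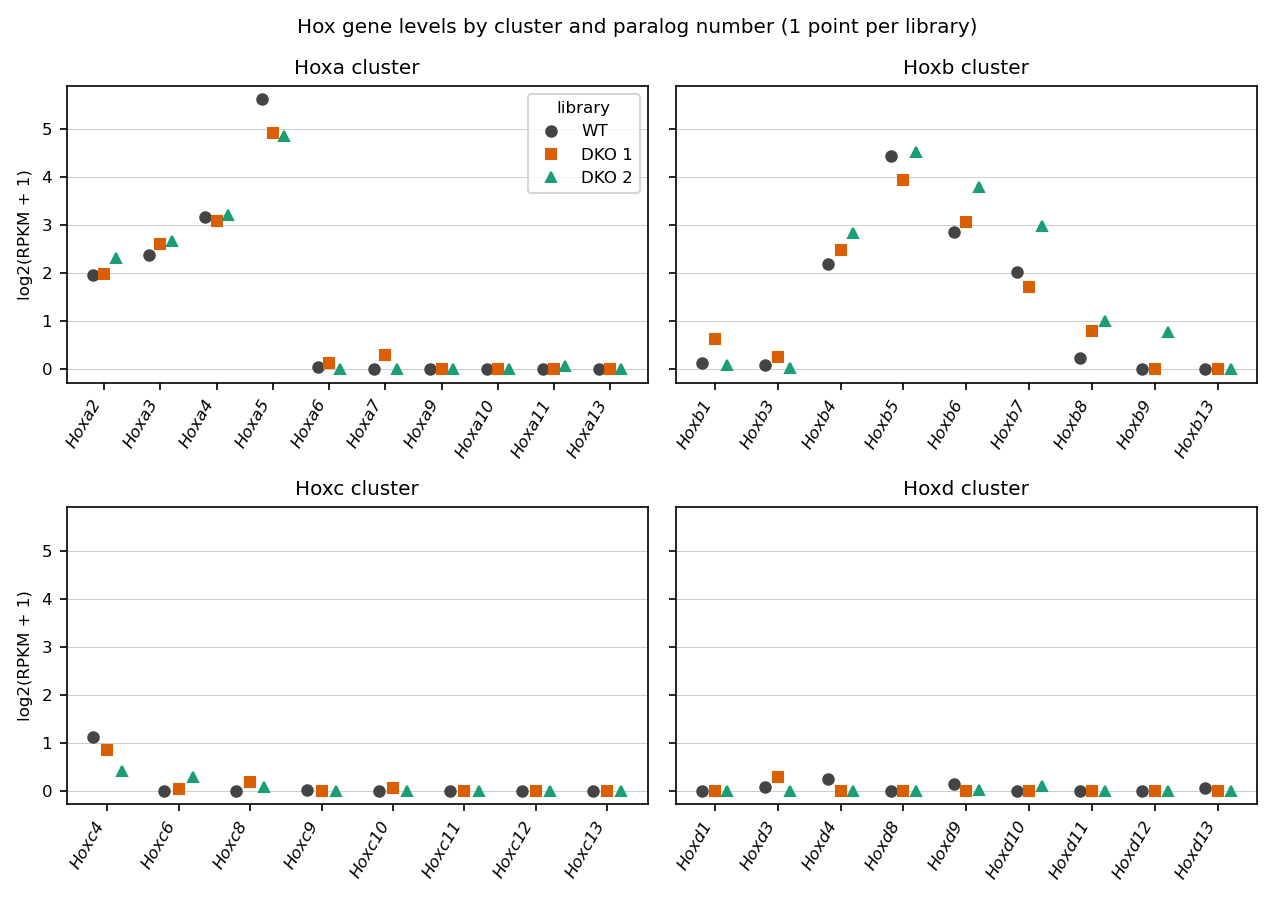
Level of the Hox genes as log2(RPKM + 1) against its place in the cluster by paralog number, with 1 point per library and the rows of a gene summed. In every library the Hoxa genes step up to Hoxa5 and stop there, and the Hoxb genes step down from Hoxb5 to Hoxb8.

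The order of levels along the Hoxa cluster was shared by the 3 libraries. Hoxa5 stood above Hoxa4, Hoxa4 above Hoxa3, and Hoxa3 above Hoxa2 in each of them. Beyond Hoxa5 the level broke off. Hoxa6 was listed at 0 for DKO 2 and gave 0.0294 RPKM for WT and 0.0933 for DKO 1, which stand for about 1 and 3 reads. Hoxa7 reached 0.217 RPKM in DKO 1 and was listed at 0 elsewhere. In WT, Hoxa5 was 6.02-fold above Hoxa4, and in DKO 1 and DKO 2 it was 3.95-fold and 3.41-fold above it. The step from Hoxa4 to Hoxa5 was thus present in each library and was highest in WT.

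In the Hoxb cluster the order ran the other way from its highest member. Hoxb5 stood above Hoxb6, Hoxb6 above Hoxb7, and Hoxb7 above Hoxb8 in all 3 libraries. Hoxb8 was in turn above Hoxb9 in each. The ratio of Hoxb5 to Hoxb6 was 3.33 for WT, 1.96 for DKO 1 and 1.72 for DKO 2. That of Hoxb7 to Hoxb8 was 17.1, 3.11 and 6.92. Both of these steps were steepest in WT, whereas the step from Hoxb6 to Hoxb7 was steepest in DKO 1 (2.03, 3.26 and 1.87). Within paralog number 4, the one group with a gene in all 4 clusters and a value above 0 for each, Hoxa4 was above Hoxb4, Hoxb4 above Hoxc4 and Hoxc4 above Hoxd4 in every library.

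Taken by paralog number, number 5 carried most of the Hox signal. Hoxa5 and Hoxb5 together made up 69.2% of the summed Hox RPKM for WT, 56.2% for DKO 1 and 50.7% for DKO 2. Numbers 6 to 8 made up 9.49%, 13.9% and 21.2% in the same order. Numbers 9 to 13, the posterior genes, made up 0.161%, 0.0436% and 0.839%. The share of number 5 was lower and that of numbers 6 to 8 higher in both DKO libraries than in WT. Shares sum to a whole, so a lower share of one number raises the others. Without Hoxa5 the Hox sum was 51.5 RPKM for WT, 48.7 for DKO 1 and 70.9 for DKO 2.

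**Figure D2:**
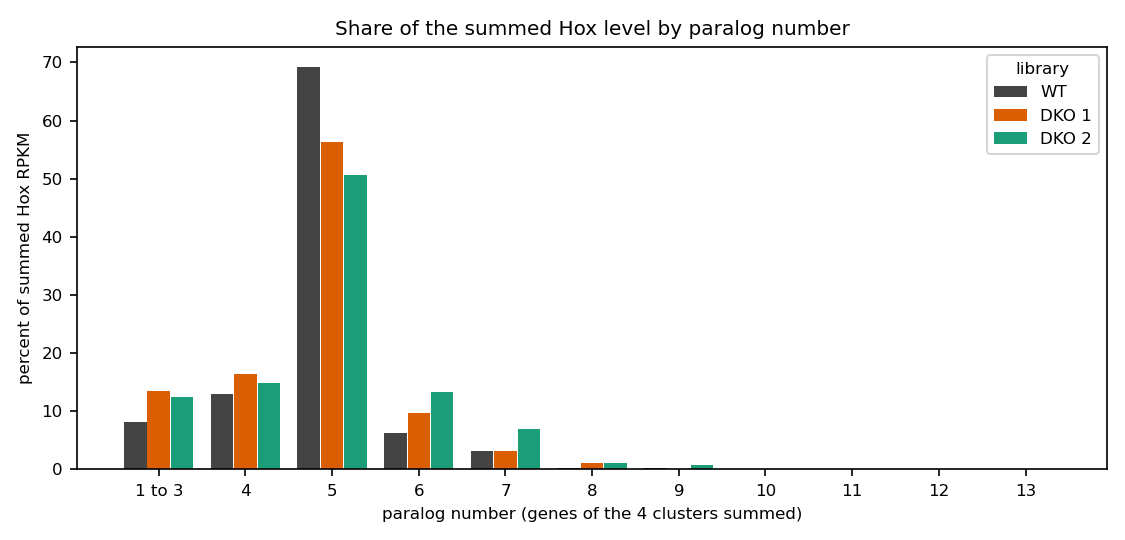
Percent of the summed Hox RPKM in each library (bars) by paralog number, with the genes of the 4 clusters summed and numbers 1 to 3 in 1 set of bars. Number 5 has 69.2% for WT, 56.2% for DKO 1 and 50.7% for DKO 2, and numbers 10 to 13 are close to 0.

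The comparison of the DKO libraries with WT was made gene by gene. It used limma, a linear model that pools the spread across genes, two-sided, on log2(RPKM + 1) over the 2066 transcripts that averaged 1 RPKM or more, and 9 Hox transcripts were among these, including Hoxa2 to Hoxa5 and Hoxb4 to Hoxb7. No Hox gene passed limma at a Benjamini-Hochberg adjusted p under 0.05 (adjusted p = 0.999 for each), where 0.0968% of all transcripts tested did. At an unadjusted p under 0.05 the count of Hox genes was also 0, beside 3.19% of all transcripts tested. By size, 0 of the 9 differed at least 2-fold from WT in both DKO libraries in the same direction with a smaller gap between the DKO libraries themselves, beside 4.7% of all transcripts. The median difference of the 9 was 0.25 on the log2(RPKM + 1) scale (0.02 in DKO 1 and 0.36 in DKO 2), beside −0.01 over all transcripts tested. Of the 9, 5 lay above WT in both DKO libraries, where 32.1% of all transcripts did, and 1 lay below in both, where 31% did. With rescaling to TPM, which moved the median of all transcripts to −0.22, these counts were 3 above (Hoxb4 and Hoxb6 among them) and 3 below (Hoxa4, Hoxa5 and Hoxb5). They were 4 and 3 with median scaling, and 5 and 3 with quantile normalization. The spread in this test comes from the 2 DKO libraries alone, with the lone WT library assumed to vary like them.

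Hoxa5 (NM_010453, chromosome 6, 52201754 to 52204587, minus strand), known for its part in lung branching, was the one Hox gene tested that lay below WT in both DKO libraries without rescaling. Its level was 48.4 RPKM for WT, 29.5 for DKO 1 and 28.1 for DKO 2 (some 4422, 1698 and 1802 reads). WT stood clear of the DKO libraries, whose values were nearly equal without rescaling. With rescaling to TPM the values were 128.5, 74.4 and 57.4, so WT stayed highest and DKO 2 lay below DKO 1. The RPKM ratio to WT was 0.609 in DKO 1 (95% exact binomial interval 0.576 to 0.645) and 0.580 in DKO 2 (0.549 to 0.613). Such intervals cover counting error only. On the log2(RPKM + 1) scale the difference was −0.73 (SE 0.76, limma adjusted p = 0.999), which did not pass. The SE is mostly pooled from other transcripts (11.2 degrees of freedom from them, 1 from the gene). It is thus not the spread of Hoxa5 itself, and without a filter on low values it was 0.30 (limma adjusted p = 0.922). No exon of another annotated gene overlapped the Hoxa5 transcript.

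Hoxb5 (NM_008268), the paralog of Hoxa5 in the Hoxb cluster, was second in level in every library. WT gave 20.7 RPKM, DKO 1 gave 14.5 and DKO 2 gave 22.1. WT lay between the DKO libraries, and the log2 difference was −0.20 (SE 0.74). The ratio of Hoxa5 to Hoxb5 was 2.33 for WT, 2.04 for DKO 1 and 1.27 for DKO 2. The 2 paralogs were thus closest in level in DKO 2.

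Hoxa2, Hoxa3 and Hoxa4 are anterior members used in the hindbrain, the pharyngeal region and the foregut. Hoxa2 had 2.92, 2.98 and 4.02 RPKM, so that DKO 1 was nearly level with WT and DKO 2 higher. Hoxa3 had 4.24, 5.08 and 5.37 RPKM, with both DKO libraries slightly above WT, though not DKO 2 with TPM (log2 difference 0.25, SE 0.64). Hoxa4 was nearly level, with 8.04, 7.47 and 8.23 RPKM (log2 difference −0.03, SE 0.66). Without Hoxa5 the Hoxa cluster summed to 16.0 RPKM for WT, 17.3 for DKO 1 and 20.4 for DKO 2. The lower Hoxa sum of the DKO libraries was thus carried by Hoxa5.

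The remaining Hoxb genes tested belong to the middle of the cluster. Hoxb4, also known from blood stem cells, gave 3.58 RPKM for WT, 4.57 for DKO 1 and 6.12 for DKO 2. It lay above WT in both DKO libraries, with a log2 difference of 0.46 (SE 0.64). Hoxb6 had 6.21, 7.37 and 12.9 RPKM, again above WT in both (log2 difference 0.58, SE 0.69). Hoxb7 had 3.06, 2.26 and 6.89 RPKM and lay on either side of WT. DKO 2 was the highest library for all 4 of Hoxb4, Hoxb5, Hoxb6 and Hoxb7. It lay above DKO 1 by 0.35, 0.58, 0.73 and 1.27 on the log2(RPKM + 1) scale in that order. For Hoxb5, Hoxb6 and Hoxb7 this gap between the DKO libraries was larger than the mean difference from WT.

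**Figure D3:**
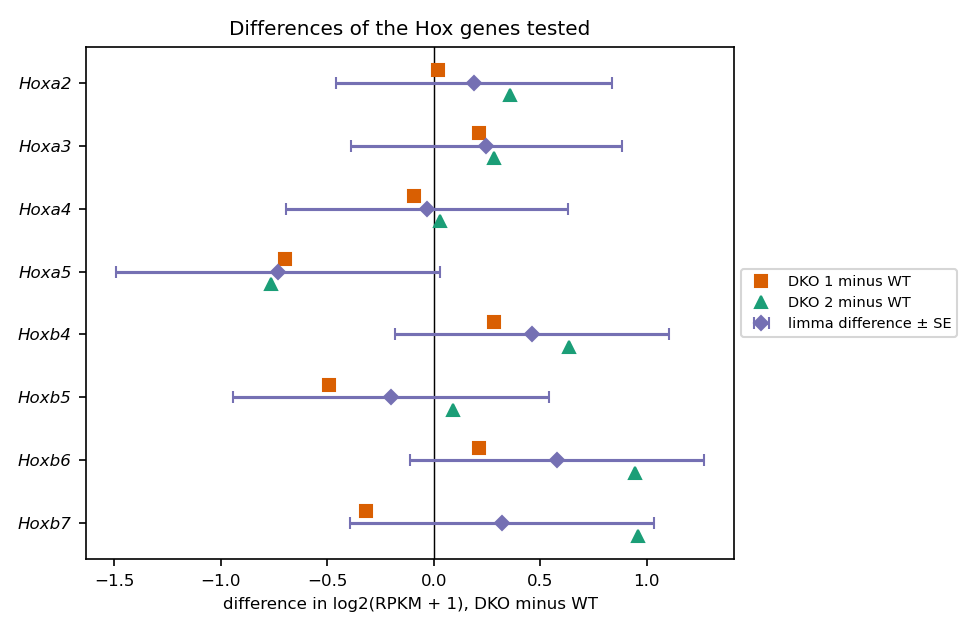
Difference from WT in log2(RPKM + 1) for 8 of the 9 Hox genes tested. Squares show DKO 1, triangles DKO 2, and diamonds with bars the limma difference and its SE. The SE is mostly pooled from other transcripts. Both libraries lie left of 0 for Hoxa5 alone (−0.70 and −0.76), and DKO 2 lies right of DKO 1 for the other genes.

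A further 17 Hox genes had a value above 0 but a mean under 1 RPKM and were not tested at the main threshold. Hoxc4 had the highest mean of these (0.761 RPKM). WT gave 1.17 RPKM, DKO 1 gave 0.789 and DKO 2 gave 0.324 (some 113, 48 and 22 reads). Both DKO libraries lay below WT, with ratios of 0.674 (95% exact binomial interval 0.471 to 0.953) and 0.277 (0.167 to 0.440). Hoxb8, the next by mean, went the other way, with 0.179, 0.727 and 0.995 RPKM (some 23, 59 and 90 reads). Its ratios to WT were 4.07 (2.48 to 6.91) in DKO 1 and 5.57 (3.49 to 9.23) in DKO 2, and both DKO libraries lay above WT. Without a filter on low values, neither passed limma (adjusted p = 0.922 for each).

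Single libraries set most of the other low values. Hoxb9 had 0.715 RPKM in DKO 2 (about 63 reads) and was listed at 0 in WT and DKO 1. Hoxb1, an anterior gene of the hindbrain, had 0.0890, 0.549 and 0.0563 RPKM, with DKO 1 above both others. Hoxc6 and Hoxc8 were both listed at 0 for WT. Hoxc6 reached 0.0205 RPKM in DKO 1 and 0.220 in DKO 2, and Hoxc8 reached 0.138 and 0.0494. In the Hoxd cluster, Hoxd4 (0.177 RPKM, about 22 reads) and Hoxd13 (0.0414 RPKM) had values in WT alone and were listed at 0 in both DKO libraries. Hoxd9, listed at 0 for DKO 1, gave 0.108 RPKM for WT and 0.0139 for DKO 2. Hoxd3, listed at 0 for DKO 2, gave 0.0495 RPKM for WT and 0.225 for DKO 1. WT was thus the highest library for Hoxd4, Hoxd9 and Hoxd13 and DKO 1 for Hoxd3. Hoxa11 and Hoxd10 were above 0 in DKO 2 only, Hoxc10 in DKO 1 only and Hoxc9 in WT only, each at about 4 reads or fewer. Over the 18 low transcripts, 3 lay above WT in both DKO libraries and 5 below, beside 19.3% and 30.4% of all 3179 transcripts with a value above 0 and a mean under 1 RPKM. Without a filter on low values, Hoxd4 and Hoxd9 were the Hox genes with an unadjusted limma p under 0.05 (0.0103 and 0.0290), and neither passed after adjustment (limma adjusted p = 0.773 and 0.922). They were 2 of 27 Hox transcripts in that fit, where 4.96% of all transcripts had such a p.

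The 11 Hox genes listed at 0 in every library were Hoxa9, Hoxa10, Hoxa13, Hoxb13, Hoxc11, Hoxc12, Hoxc13, Hoxd1, Hoxd8, Hoxd11 and Hoxd12. Of the 16 posterior genes, with paralog numbers 9 to 13, 9 were listed at 0 throughout, beside 68.0% of all transcripts in the table. The count alone thus does not set the posterior genes apart. The way transcripts are listed bears on some of these zeros. Hoxa9, Hoxa10, Hoxb3 and Hoxd8 have more than 1 row each in the table, and their 9 rows held at most 0.115 RPKM, 7 of them 0. Both rows of Hoxb3, a gene between Hoxb4 and Hoxb1, were low in every library. Reads shared by such rows may be missing from both, and this was not tested. The other 8 genes at 0 have a single row. For 14 of the 42 transcripts, exons of another gene covered part of their length, from 5.28% for Hoxb5 and 29.5% for Hoxa3 to 88.0% for Hoxd3. Some of these overlaps were with genes on the same strand, as for Hoxd3, whose exons overlap those of Hoxd4. Strand cannot separate the reads there. Other overlaps were with antisense transcripts. Whether strand was used in counting is not given in the sources used here, so antisense reads could not be told apart either.

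Hox proteins bind DNA together with TALE homeodomain proteins such as those of the Meis family. Of 9 such genes looked up, 7 were in the table, 3 had a value above 0 and none reached the level for testing. Hox clusters are held silent by Polycomb group proteins. Of 17 such genes, 15 were in the table, 6 were tested, and none passed limma in either direction. Their median log2 difference was −0.03, beside −0.01 over all transcripts. Of the 6, 2 (Cbx2 and Ring1) lay above WT in both DKO libraries without rescaling. Another 2 (Rbbp4 and Bmi1) lay below, beside 32.1% and 31% of all transcripts tested. The 4 with the highest means were Rbbp7 (60.6, 54.3 and 63.7 RPKM) and Rbbp4 (23.1, 18.1 and 23.0 RPKM), histone-binding subunits, Rnf2 (7.03, 13.4 and 3.33 RPKM), a histone H2A ubiquitin ligase, and Bmi1 (7.16, 4.80 and 3.27 RPKM), its partner. Ezh2 and Suz12 were listed at 0. Of 8 trithorax and demethylase genes, 6 were in the table and none was tested. Kmt2a, a methyltransferase that keeps Hox genes active, had 0.957, 0.474 and 0.313 RPKM, and the demethylase Kdm6a had 1.37, 1.26 and 0.217 RPKM. Its relative Kdm6b went the other way, with 0.365, 0.888 and 0.563 RPKM.

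Of 16 genes known to act upstream of the Hox clusters, 15 were in the table and 9 of these were listed at 0, among them Rara, Rarg and the 3 Cdx genes. The one tested was Aldh1a2, which encodes an enzyme that makes retinoic acid, a known inducer of anterior Hox genes. WT gave 3.75 RPKM, DKO 1 gave 11.4 and DKO 2 gave 13.8. Both DKO libraries stood well above WT, with a log2 difference of 1.52, and the gene did not pass limma (adjusted p = 0.999). Other enzymes of retinoic acid synthesis were not among the 16 genes, so these values stand for Aldh1a2 only.

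Since lung Hox genes are known mainly from mesenchyme, other genes of that tissue were set beside them. Of 12 mesenchymal markers, all in the table, 9 were above 0 and Pdgfrb, Postn and Tbx4 were listed at 0. Their summed level was 102 RPKM for WT, 154 for DKO 1 and 88.0 for DKO 2. Relative to this sum, Hoxa5 was at 0.473 for WT, 0.191 for DKO 1 and 0.319 for DKO 2. On this scale too Hoxa5 was below WT in both DKO libraries. Most of the sum was Col3a1 (38.0, 56.2 and 33.9 RPKM), Col1a2 (21.3, 30.5 and 22.6) and Lum (15.6, 30.6 and 4.38). These genes themselves differed between the libraries, and the ratio was not tested. Of 19 other transcription factors of lung mesenchyme (Foxf1, Tcf21, Tbx4 and Tbx5 stand in both lists), 11 were tested and none passed limma. Their median log2 difference was 0.32, beside 0.25 for the Hox genes and −0.01 over all transcripts tested. Without rescaling, 6 of the 11 lay above WT in both DKO libraries and 2 below, beside 32.1% and 31% of all transcripts tested. Tcf21 had 11.8, 14.4 and 9.65 RPKM, Prrx2 had 8.51, 9.33 and 14.7, Foxf1 had 9.15, 12.4 and 8.90 and Tbx2 had 6.13, 4.96 and 10.2.

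Sums over genes of some other cell types differed between these libraries by more than the Hox sums did, and those of others by less. The 4 smooth muscle markers summed to 21.3 RPKM for WT, 22.7 for DKO 1 and 20.6 for DKO 2. The 5 endothelial markers, with Pecam1 and Tek listed at 0, summed to 3.48, 3.74 and 3.93 RPKM. These sums were closer between the libraries than the Hox sum, though the genes within them were not all level. In the smooth muscle list, Tagln lay below WT in both DKO libraries (log2 difference −0.49). Acta2 lay above WT in both (log2 difference 0.87), so opposite differences offset each other in that sum. Most of the endothelial sum was Cdh5 (2.39, 2.53 and 2.19 RPKM). The summed level of 5 liver markers, all above 0, was 7.55 RPKM for WT, 11.4 for DKO 1 and 182.6 for DKO 2. That of 5 erythroid markers, also all above 0, was 20199, 28712 and 102767 RPKM. DKO 2 was the highest in both. Without rescaling it was also the highest library for Hoxa2, Hoxa3, Hoxa4, Hoxb4, Hoxb5, Hoxb6, Hoxb7, Hoxb8 and Hoxb9, and not for Hoxa5. Of 6 immune markers, 5 were in the table and 4 above 0 (Ptprc was listed at 0), with sums of 31.6, 349.6 and 191.9 RPKM. The 9 epithelial genes in the table summed to 405.8, 26.6 and 35.8 RPKM, of which Sftpc alone gave 369, 7.55 and 0.0364. The part of these cells in the Hox values was not tested. Of the kidney markers, Pax2, Pax8 and Umod were listed at 0 and Cdh16 had at most 0.167 RPKM. Of 6 cartilage and body wall markers, 5 were in the table and 3 above 0, with sums of 4.004, 2.37 and 2.38 RPKM. Most of this was Sox9 (3.84, 2.34 and 1.47 RPKM), a cartilage factor that lung epithelium also uses, and Ckm, of muscle, was highest in DKO 2 (0.909 RPKM).

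**Figure D4:**
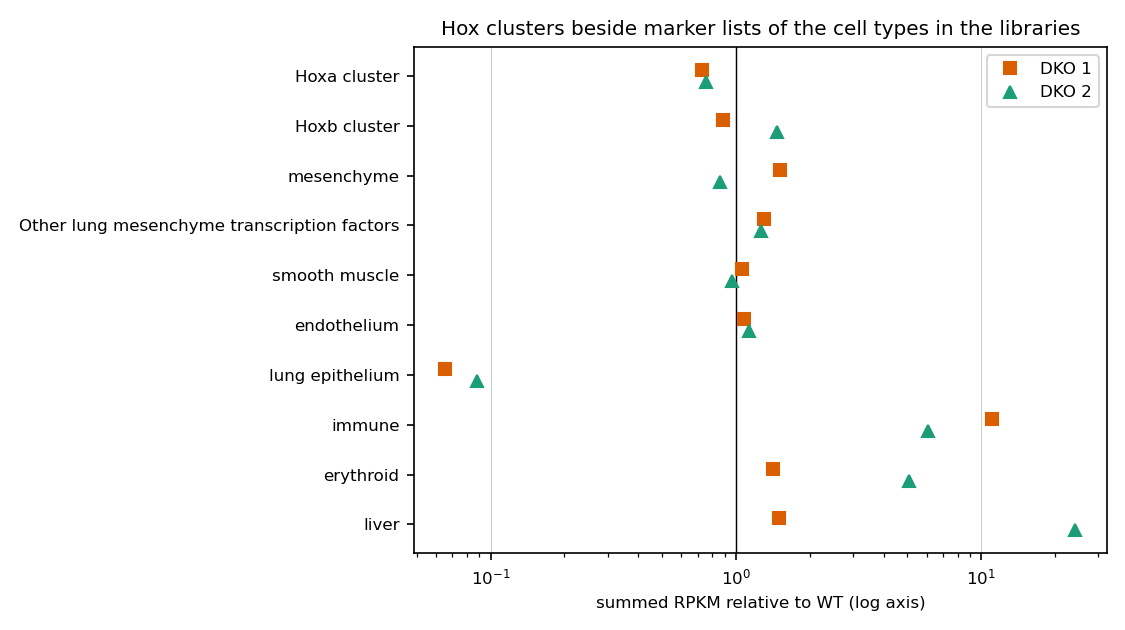
Summed RPKM of the Hoxa and Hoxb clusters and of 8 gene lists in DKO 1 (squares) and DKO 2 (triangles), each relative to WT on a log axis. The Hoxa cluster lies at 0.727 and 0.753 of WT and the Hoxb cluster at 0.889 and 1.47, whereas the liver list in DKO 2 lies at 24.2.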

How the data were processed

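RNA from whole lung was extracted with Trizol and made into libraries with the SMARTer Ultra Low Input kit, per the labels. The deposited values are RPKM, in which the authors divided reads by transcript length and library size, 1 column per library and 1 row per RefSeq transcript. The submitters' processing notes name cutadapt, TopHat2, HTSeq and edgeR with build mm10, with no version or role, and the transcript lengths used are not given. Symbols came from the RefSeq table of GRCm38.p6 (16150 transcripts) and GENCODE M21 (78), leaving 155 unnamed. A share of 68.0% of transcripts, and 15 of the 42 Hox transcripts, was listed at 0 in every library.

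Transcripts averaging 1 RPKM or more were tested on log2(RPKM + 1) with limma 3.58.1 in R 4.3.3 (trend, two-sided, Benjamini-Hochberg over all tested, 1 residual degree of freedom). Fold changes on this scale understate those of low genes. The procedure was tested on simulated data in which WT was given the spread of the DKO libraries, so this cannot check that assumption. The changes planted there were larger than those of the Hox genes tested. RPKM times GENCODE transcript length gave the worth of 1 read from its commonest low value. Low values came out whole to within 0.05 of a read in 45.6% (WT), 45.2% (DKO 1) and 43.7% (DKO 2) of cases, beside 10% by chance, so read numbers are approximate and serve for counting intervals only (exact binomial, 95%). Alternatives were other pseudocounts, filters, scalings, moderation, a 1.5-fold rule and leaving out each DKO library. Every Hox gene with a mean of at least 1 RPKM was named, except 1 that is not reported here, and the other lists by up to 4 tested members from the highest mean down. Kmt2a, Kdm6a, Kdm6b and the marker genes were added after their values were seen. The members and lists were chosen with earlier results of these data known.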

Additional observations from a re-analysis of the deposited data

How the results depend on the processing

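No Hox transcript passed limma under any of the 9 alternative fits. For the 9 genes tested, limma adjusted p ran from 0.922 to 0.999. The fit without a filter also took in low Hox transcripts, and there Hoxd4 had a limma adjusted p of 0.773. All 76 values of the 9 genes under the alternative fits kept the direction of the main fit. Changes of filter or moderation alone leave the difference as it was, so those could not reverse it. Leaving out DKO 1 turned Hoxa4 from −0.03 to 0.03 and Hoxb5 from −0.20 to 0.09. Leaving out DKO 2 turned Hoxb7 from 0.32 to −0.32. Rows at 0 in every library were left out of the fit without a filter. The number of all transcripts called, 2 in the main fit (1 higher, 1 lower), was 13 with a pseudocount of 0.1, 1 with a pseudocount of 5, 10 with a filter at 5 RPKM, 16 with median scaling (15 higher, 1 lower), and 0 without a filter (260 at an unadjusted p under 0.05), with quantile normalization (45) and with TPM (38). The number past the 2-fold rule, 97 (66 higher, 31 lower), was 166 with a pseudocount of 0.1, 34 with 5, 50 with a filter at 5 RPKM, 138 with TPM (71 higher, 67 lower), and 275 (13.3%) with a 1.5-fold rule, which took in 1 Hox gene, Hoxa5. The median Hox difference of 0.25 was −0.12 with a filter at 5 RPKM, which kept 4 Hox genes, and ran from 0.02 to 0.36 when either DKO library was left out. The log2 ratio of the Hoxa sum, −0.43, was −0.65 with TPM, −0.51 with median scaling and 0.24 without Hoxa5. Without its highest transcript the Hoxc ratio went from −0.59 to 4.27, since 1 read was left in WT, and the Hoxd ratio from −1.31 to −3.08. The Hoxc and Hoxd sums had no transcript at 1 RPKM, so that alternative gave no value. Leaving out a DKO library gives 1 library against 1, with no test. No paired analysis was possible because WT has 1 library and carries no replicate number in its label.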

Other observations

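Most relatives and neighbours of the Hox clusters that were in the table were listed at 0, which can be a failed estimate, and 8 of the 14 flanking genes looked up were not in it. Of 6 ParaHox genes, the sister group of the Hox genes that patterns gut and brain, 5 were in the table (Cdx1, Cdx2, Cdx4, Gsx1 and Pdx1), and all 5 were listed at 0 in every library. Of 14 genes that flank the clusters, 6 were in the table, and 5 of these were listed at 0, among them Atf2, a widely expressed gene. Evx1, an even-skipped homeobox gene beyond the posterior end of Hoxa, had 0.0357 RPKM in WT and was listed at 0 in both DKO libraries. Barx1, a homeobox gene of stomach mesenchyme, reached 0.575 RPKM in DKO 1 and 1.70 in DKO 2, was listed at 0 for WT, and was not tested. Of 5 neural and neural crest markers, 4 were in the table and 2 above 0. Of these, Sox10 had 0.469 RPKM in DKO 1 and was listed at 0 in the other two libraries. DKO 1 was also the library with the highest Hoxb1 (0.549 RPKM), and a relation between them was not tested.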
